A study of Arabidopsis thaliana with 4 samples.

Results

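The nuclear photosystem and antenna genes are 40 Arabidopsis genes that encode chlorophyll-binding antenna proteins and nuclear-encoded subunits of photosystem I and photosystem II. Further subunits are described below as a separate list. The 40 genes were taken from the tables by gene identifier, according to the protein they encode. The rule uses no measured value, but the genes were chosen with earlier results of these data known. The 40 genes comprise 4 LHCA genes, 14 LHCB genes, 12 PSA genes and 10 PSB genes, and all 40 of them were found among the 13311 genes that the authors' 3 gene tables hold.

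Photosynthesis in plants relies on antenna proteins that gather light and pass its energy to the reaction centres of the photosystems. LHCA proteins form the antenna of photosystem I. LHCB1, LHCB2 and LHCB3 form the trimeric major antenna of photosystem II, while LHCB4, LHCB5 and LHCB6 are its monomeric minor antennae. The genes are best known from leaves, but sepals, young carpels, stems and anthers of an inflorescence also hold chloroplasts.

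Messenger RNA was measured by sequencing in 4 libraries of inflorescence tissue (labelled flower) from 5-week-old plants. There were 2 libraries of the ndx1-4 mutant, a T-DNA insertion line in the Col-0 ecotype, and 2 libraries of wild-type Col-0. NDX (NODULIN HOMEOBOX) is a plant-specific homeobox regulator of transcription, and ndx1-4 is a single insertion line (WiscDsLox344A04), so effects of the insertion and of other differences of that line cannot be told apart. Per the study's methods, the replicates of a genotype were independent biological replicates, each a pool of RNA from 5 inflorescences of different plants.

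NDX itself (AT4G03090) had 73 and 108 estimated counts in the ndx1-4 libraries, against 430 and 525 in the Col-0 libraries. Its mean FPKM in ndx1-4 was 16.0% of that in Col-0. The genes listed for both genotypes summed to between 8934973 and 11624576 counts per library. The 7 floral organ identity genes checked were all present, with summed levels of 604 and 635 FPKM in ndx1-4 and 580 and 610 FPKM in Col-0. Levels are given in FPKM, that is, reads per kilobase of transcript and library size as the authors scaled them. Fold changes are log2 values of ndx1-4 over Col-0 with the standard error (SE) from the quasi-likelihood test of edgeR, fitted over 7981 genes with Benjamini-Hochberg adjustment and called at an adjusted p below 0.01. The 7981 genes are genes that differed between flowers and seedlings in both genotypes by the authors' threshold, so the background is not the whole genome. In bulk inflorescence RNA, fewer green cells and less RNA per green cell cannot be told apart.

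All 40 members were in both tables of the comparison of flowers with seedlings, as were 8961 genes in all, so their flower counts were known in all 4 libraries and all 40 had at least the mean of 10 counts needed for the test. Of the 40 members, 4 were in the authors' table of the genotype comparison, and these 4 were lower in ndx1-4. They were LHCB1.1, LHCB2.1, LHCB4.3 and PSAH-2. Among all 7981 genes tested, 91 were listed there and lower in ndx1-4, or 1.14%.

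In the edgeR fit no member passed the adjusted threshold, against 7 of all 7981 genes (0.0877%), and all 7 of those were higher in ndx1-4. At an unadjusted p below 0.05 the fit held 6 members lower in ndx1-4 (LHCB1.1, LHCB2.1, LHCB2.3, LHCB4.3, PSAH-2 and PSBS) and 1 member higher (LHCB1.4), against 8.70% and 10.6% of all genes. DESeq2 on the same counts called 3 members lower at an adjusted p below 0.01, which were LHCB1.1, LHCB2.1 and LHCB4.3, and no member higher. It called 199 genes in all, of which the 83 lower ones were 1.04% of the genes tested. The fold changes were negative for 28 of the 40 members and for 3830 of the 7981 genes. The members' median log2 fold change was -0.10, beside 0.01 over all genes tested.

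Separation of the genotypes was judged on scaled counts, that is, counts divided by each library's scaling, which can differ slightly from FPKM because the effective transcript length behind FPKM is estimated per library. Both ndx1-4 libraries lay below both Col-0 libraries for 15 of the 40 members and above them for 4 members (LHCB1.4, LHCB1.5, PSAH-1 and PSBY). Of all genes tested, 25.6% were below and 27.9% were above in this way. The share of members below was 37.5%, and that above was 10%.

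**Figure D1:**
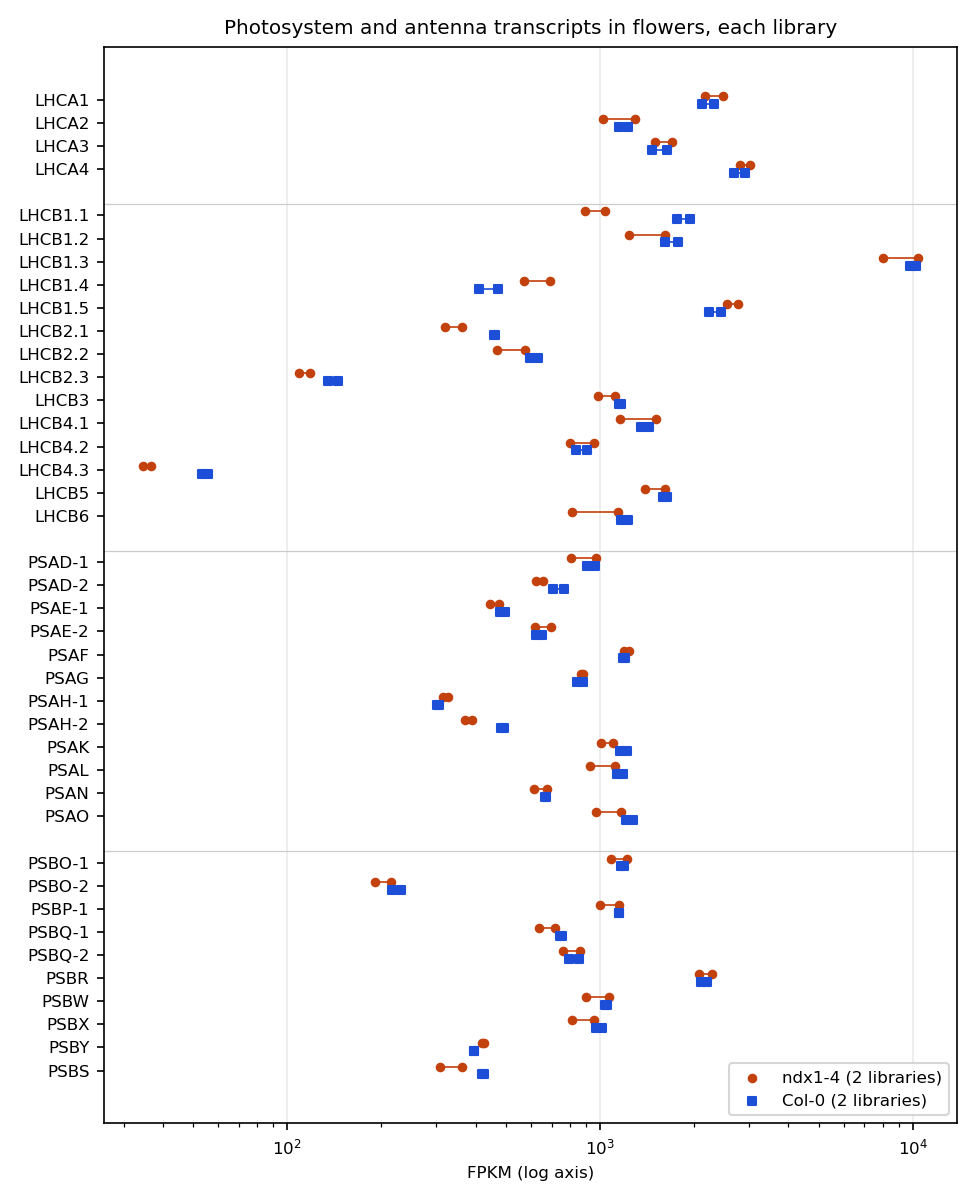
Level of each of the 40 members in FPKM on a log axis, with the 2 ndx1-4 libraries as circles above the 2 Col-0 libraries as squares in each row, and lines joining the libraries of a genotype. LHCB1.3 is the highest member and LHCB4.3 the lowest in both genotypes, and the rows of LHCB1.1, LHCB2.1, LHCB4.3 and PSAH-2 show the ndx1-4 pair apart from and below the Col-0 pair.

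The plot of levels shows that the members ran from LHCB4.3, with a lowest value of 34.5 FPKM, to LHCB1.3, with a highest value of 10396 FPKM, whereas the genotypes lay close together for most of them. The summed level of the 40 members was 51332 and 43766 FPKM in ndx1-4, against 51485 and 49765 FPKM in Col-0. The members took 8.20% and 7.24% of all joined counts in ndx1-4 and 8.54% and 8.49% in Col-0. The first ndx1-4 library thus lay within the range of the Col-0 libraries in summed level, and the second lay below it. In share of joined counts both ndx1-4 libraries lay below both Col-0 libraries.

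The LHCA genes, which encode the antenna of photosystem I, showed no separation between the genotypes in any of the 4 genes. LHCA4, the highest of them, had 3011 and 2796 FPKM in ndx1-4, against 2906 and 2687 FPKM in Col-0. LHCA1 had the highest fold change of this group, with 2471 and 2161 FPKM in ndx1-4 and 2304 and 2114 FPKM in Col-0 (log2 fold change 0.07 ± 0.14, SE). LHCA2 had the lowest, with 1289 and 1019 FPKM in ndx1-4 and 1231 and 1147 FPKM in Col-0 (-0.05 ± 0.16, SE). For each of these genes the libraries of the 2 genotypes overlapped. The median log2 fold change of the 4 LHCA genes was 0.05.

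The LHCB genes, which encode the antenna of photosystem II, held both the lowest and the highest fold changes of all members. Their median log2 fold change was -0.19, with 11 of the 14 genes below 0. In 7 of them (50%) both ndx1-4 libraries were below both Col-0 libraries, against 25.6% of all genes tested. In LHCB1.4 and LHCB1.5 (14.3%) both were above, against 27.9% of all genes tested. The reads of LHCB1.5 cannot be told from those of a gene on the opposite strand.

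LHCB1 encodes the most abundant protein of the major antenna and is present in 5 copies that lie in clusters on chromosomes 1 and 2 (TAIR10 coordinates). LHCB1.1 (AT1G29920, symbol AB165 in the tables) lies on the minus strand of chromosome 1 from 10474656 to 10475969, between LHCB1.2 (AT1G29910, minus strand, 10472280 to 10473502) and LHCB1.3 (AT1G29930, plus strand, 10477885 to 10479114). LHCB1.5 (AT2G34420, minus strand, 14522524 to 14523568) and LHCB1.4 (AT2G34430, plus strand, 14524607 to 14525918) are neighbours on chromosome 2. The coding sequences of LHCB1.1, LHCB1.2 and LHCB1.3 were each 804 bases long and were identical to each other at 95.6% to 96.4% of positions in the RefSeq annotation of TAIR10.1.

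The first 90 bases of these 3 coding sequences are shown because no other stretch of 90 bases holds more positions at which the copies differ. They show how reads of the chromosome 1 copies can be told apart where the copies differ most. The capitals mark the 9 positions of this stretch at which the copies differ, out of 47 such positions over the whole coding sequence.
LHCB1.1: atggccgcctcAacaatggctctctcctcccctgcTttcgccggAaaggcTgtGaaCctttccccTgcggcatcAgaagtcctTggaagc
LHCB1.2: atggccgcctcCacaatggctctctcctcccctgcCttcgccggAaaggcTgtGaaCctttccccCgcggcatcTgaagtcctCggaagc
LHCB1.3: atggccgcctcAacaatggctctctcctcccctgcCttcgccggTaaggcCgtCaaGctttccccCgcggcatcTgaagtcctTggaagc

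Reads were 75 bases long, and 89.6% of the 75-base windows of the LHCB1.1 transcripts occurred in no other annotated transcript. The share was 96.3% for LHCB1.2 and 89.5% for LHCB1.3. The other windows were shared between LHCB1.1 and each of the other copies and, for LHCB1.3, also with a gene that overlaps it on the opposite strand. The counts are estimates that divide such reads. These shares do not weigh the levels of the genes. LHCB1.1 shared 87 of its 1240 windows with LHCB1.3. In ndx1-4, LHCB1.3 had 177063 and 133126 scaled counts, against 17188 and 14581 for LHCB1.1. In Col-0 it had 171255 and 166386, against 31701 and 29299. How far the division of shared reads enters the values of LHCB1.1 was not tested. For LHCB1.4 on chromosome 2 the share of unique windows was 92.7%, and 2 genes shared windows with it. All of its shared windows occurred in AT2G08665, a noncoding RNA gene that covers LHCB1.5 on the opposite strand.

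LHCB1.1 had 1037 and 896 FPKM in ndx1-4, against 1932 and 1765 FPKM in Col-0. The genotypes did not overlap, and LHCB1.1 was 47.9% lower in ndx1-4 (log2 fold change -0.94 ± 0.13, SE). With edgeR its unadjusted p was 0.000904 and its adjusted p was 0.0808, so it missed the threshold, whereas the adjusted p of DESeq2 was 1.98e-11. LHCB1.1 had the lowest fold change of the 40 members.

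The neighbouring copies did not show the same difference. LHCB1.3, the highest member of all, had 10396 and 8013 FPKM in ndx1-4, against 10250 and 9772 FPKM in Col-0. Its ndx1-4 libraries lay on either side of both Col-0 libraries (log2 fold change -0.12 ± 0.24, SE). LHCB1.2 had 1618 and 1235 FPKM in ndx1-4 and 1617 and 1779 FPKM in Col-0, and there too the genotypes overlapped.

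On chromosome 2, LHCB1.4 had 691 and 571 FPKM in ndx1-4, against 473 and 412 FPKM in Col-0. It was the member with the highest fold change (0.52 ± 0.14, SE), without overlap between the genotypes, with adjusted p = 0.171 in edgeR and adjusted p = 0.0216 in DESeq2. LHCB1.5 had 2769 and 2542 FPKM in ndx1-4, against 2436 and 2233 FPKM in Col-0 (0.19 ± 0.13, SE). LHCB1.5 is wholly covered by AT2G08665, a noncoding RNA gene on the opposite strand, and the kit used does not keep the strand. None of the 75-base windows of LHCB1.5 was unique when both strands were read, so its reads and those of AT2G08665 cannot be told apart. The scaled counts of LHCB1.5 and AT2G08665 together were 85729 and 67237 in ndx1-4, against 73074 and 68271 in Col-0, and these overlapped.

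Within the LHCB1 family the copies therefore took different shares in the genotypes. LHCB1.1 made up 6.28% and 6.76% of the summed FPKM of the 5 copies in ndx1-4, against 11.6% and 11.1% in Col-0. LHCB1.4 made up 4.19% and 4.31% in ndx1-4, against 2.83% and 2.58% in Col-0. The share of LHCB1.5 was 16.8% and 19.2% in ndx1-4 and 14.6% and 14.0% in Col-0, and that of LHCB1.3 was 63.0% and 60.4% in ndx1-4 and 61.3% and 61.2% in Col-0. The shares of LHCB1.1 and LHCB1.4 did not overlap between genotypes while the share of LHCB1.3 did. The share of LHCB1.5 did not overlap either, but its reads cannot be told from those of AT2G08665. LHCB1.5 also enters the sum on which the shares of all 5 copies rest. An exact permutation test over 2 against 2 libraries cannot give a two-sided p below 0.333, the value obtained for the non-overlapping copies, so all shares are a description.

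**Figure D2:**
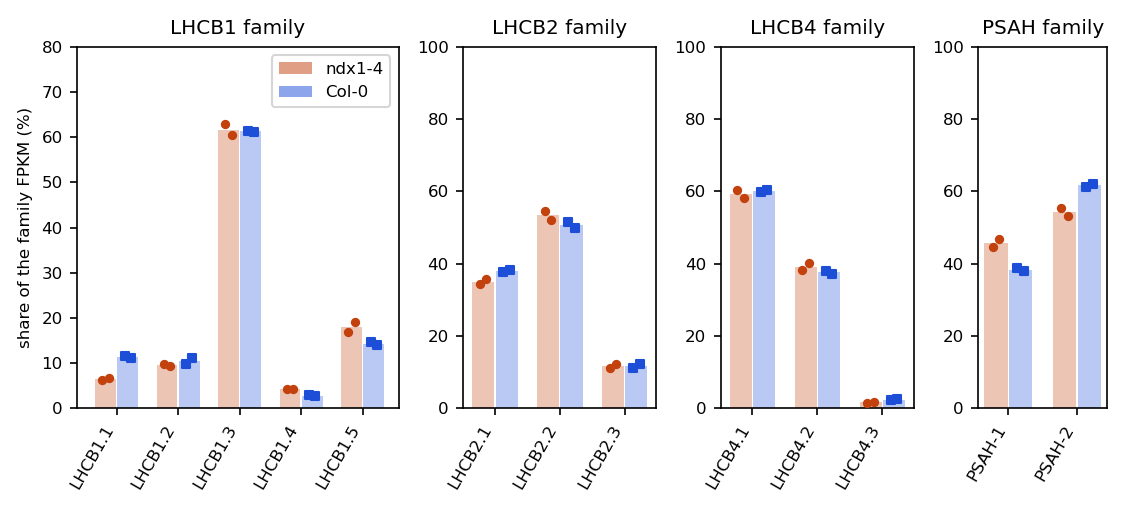
Share of each copy in the summed FPKM of its family in percent, with bars for the mean of 2 libraries and points for each library, ndx1-4 left of Col-0. LHCB1.1 and PSAH-2 take a smaller share in ndx1-4 (LHCB1.1 has 6.28% and 6.76% in ndx1-4 against 11.6% and 11.1% in Col-0, and PSAH-2 has 55.3% and 53.2% in ndx1-4 against 61.3% and 62.1% in Col-0), whereas LHCB1.3 takes about the same share of the LHCB1 family in each genotype.

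The 200 bases before the annotated start of each LHCB1 copy are given because copies of 1 antenna protein differed in fold change. The capitals mark the CCAAT box (CCAAT on either strand) and the element bound by the clock protein CCA1 (AAAAATCT or AACAATCT on either strand). The windows are, in TAIR10 coordinates and read along each gene's own strand, chr1:10475970-10476169 for LHCB1.1, chr1:10473503-10473702 for LHCB1.2, chr1:10477685-10477884 for LHCB1.3, chr2:14524407-14524606 for LHCB1.4 and chr2:14523569-14523768 for LHCB1.5.
LHCB1.1: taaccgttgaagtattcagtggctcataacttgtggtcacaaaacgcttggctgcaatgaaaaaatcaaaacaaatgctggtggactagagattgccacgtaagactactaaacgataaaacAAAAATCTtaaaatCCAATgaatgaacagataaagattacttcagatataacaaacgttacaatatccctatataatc
LHCB1.2: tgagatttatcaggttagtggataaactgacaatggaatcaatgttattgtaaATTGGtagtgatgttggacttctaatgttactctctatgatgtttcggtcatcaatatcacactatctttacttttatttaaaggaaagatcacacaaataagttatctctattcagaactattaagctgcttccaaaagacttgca
LHCB1.3: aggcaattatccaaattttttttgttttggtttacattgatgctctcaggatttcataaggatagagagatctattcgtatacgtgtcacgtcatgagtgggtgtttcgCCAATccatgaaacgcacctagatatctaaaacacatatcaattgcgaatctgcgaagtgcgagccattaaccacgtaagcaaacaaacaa
LHCB1.4: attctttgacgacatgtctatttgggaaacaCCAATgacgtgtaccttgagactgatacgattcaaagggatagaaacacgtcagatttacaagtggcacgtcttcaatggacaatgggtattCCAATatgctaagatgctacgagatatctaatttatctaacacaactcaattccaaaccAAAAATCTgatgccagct
LHCB1.5: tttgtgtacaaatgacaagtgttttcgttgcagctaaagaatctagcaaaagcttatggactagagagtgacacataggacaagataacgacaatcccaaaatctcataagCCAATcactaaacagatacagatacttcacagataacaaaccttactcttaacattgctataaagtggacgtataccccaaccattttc

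Each of the 5 windows held a CCAAT box, and the window of LHCB1.4 held 2. The CCA1 element was found in the windows of LHCB1.1 and LHCB1.4 among these copies, and these had opposite fold changes. The other members with this element were LHCA4, PSAE-2, PSAN and PSAO, with log2 fold changes of 0.05, 0.04, -0.05 and -0.22. Over the LHCB genes as a whole, 12 of 14 windows held a CCAAT box (85.7%), against 39.6% of the windows of 27443 protein-coding genes. Such a box was found for 6 of 12 PSA genes and 2 of 10 PSB genes. The CCA1 element was in 15.0% of the windows of the 40 members and in 6.54% of all windows. The I-box (GATAAG) was in 20.0% of the members' windows and in 9.97% of all windows, and the G-box (CACGTG) was in 20.0% and in 5.64%, each sought on both strands. No motif is contained in another, and a match is a description of letters, not of a bound site.

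LHCB2 proteins share the trimers of the major antenna and are phosphorylated during state transitions. LHCB2.1 (AT2G05100), on chromosome 2 from 1822990 to 1824480, had 361 and 319 FPKM in ndx1-4, against 462 and 458 FPKM in Col-0. It was 26.4% lower in ndx1-4 without overlap (log2 fold change -0.44 ± 0.10, SE), with adjusted p = 0.134 in edgeR and adjusted p = 0.00485 in DESeq2. LHCB2.2, the highest copy, had 574 and 468 FPKM in ndx1-4 and 632 and 599 FPKM in Col-0. LHCB2.3, the lowest copy, had 118 and 109 FPKM in ndx1-4 and 135 and 146 FPKM in Col-0.

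All LHCB2 copies were thus lower in both ndx1-4 libraries than in both Col-0 libraries, as were 25.6% of all genes tested. LHCB2.1 made up 34.3% and 35.6% of the family in ndx1-4, against 37.6% and 38.1% in Col-0. LHCB2.2 made up 54.5% and 52.2% in ndx1-4, against 51.4% and 49.8% in Col-0. The share of LHCB2.3 was 11.2% and 12.2% in ndx1-4 and 11.0% and 12.1% in Col-0, which overlapped. LHCB2.1 and LHCB2.2 were identical at 96.6% of positions in their coding sequences, and 85.5% and 80.9% of their 75-base windows were unique. For LHCB2.3 the share of unique windows was 62.5%, since it overlaps AT3G27700 on the opposite strand.

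Among the minor antennae, LHCB4 (CP29) is encoded by 3 copies. LHCB4.3 (AT2G40100, chromosome 2, 16745628 to 16747424) is the weakest member of all and had 36.8 and 34.5 FPKM in ndx1-4, against 53.4 and 56.0 FPKM in Col-0. It was 35.3% lower in ndx1-4 without overlap (log2 fold change -0.63 ± 0.09, SE), with adjusted p = 0.0776 in edgeR and adjusted p = 0.00117 in DESeq2. All of its 75-base windows were unique, so no other annotated transcript shares a read of this length with it.

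LHCB4.1, the main copy, had 1507 and 1156 FPKM in ndx1-4 and 1438 and 1355 FPKM in Col-0, which overlapped (-0.07 ± 0.17, SE). LHCB4.3 made up 1.47% and 1.74% of the LHCB4 family in ndx1-4, against 2.23% and 2.49% in Col-0, and LHCB4.1 made up 60.3% and 58.1% in ndx1-4, against 59.9% and 60.3% in Col-0. LHCB3, LHCB5 (CP26) and LHCB6 (CP24) had log2 fold changes between -0.30 and -0.10. LHCB3 and LHCB6 were lower in both ndx1-4 libraries than in both Col-0 libraries.

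**Figure D3:**
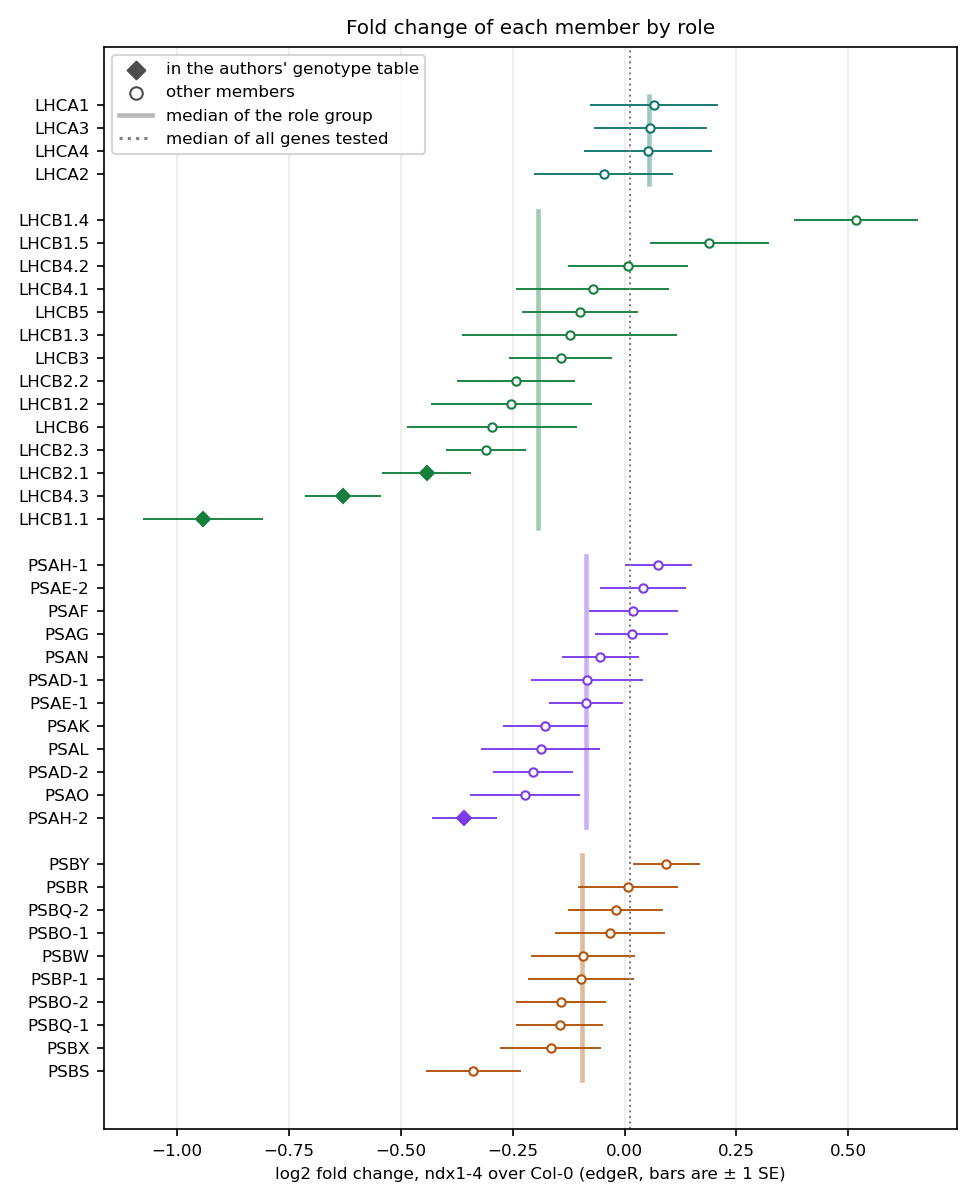
Log2 fold change of each member, ndx1-4 over Col-0, with bars of ± 1 SE from edgeR, sorted within each role. Filled diamonds are the 4 members of the authors' genotype table, and thick lines are role medians (LHCA 0.05, LHCB -0.19, PSA -0.09, PSB -0.10), with the median of all 7981 genes (0.01) dotted.

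The fold change plot sorts the members by role and shows the wider spread of the LHCB genes, whose log2 fold changes ran from -0.94 to 0.52, against -0.36 to 0.08 for the PSA genes and -0.34 to 0.09 for the PSB genes.

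The PSA genes encode subunits of photosystem I, and their median log2 fold change was -0.09. In 5 of the 12 (41.7%) both ndx1-4 libraries were below both Col-0 libraries, against 25.6% of all genes tested. PSAH is the subunit at which the mobile antenna docks to photosystem I during state transitions, and it is encoded by a pair of genes. PSAH-2 (AT1G52230, chromosome 1, 19454798 to 19455668, plus strand) had 389 and 370 FPKM in ndx1-4, against 484 and 492 FPKM in Col-0. It was 22.0% lower in ndx1-4 without overlap (-0.36 ± 0.07, SE), with adjusted p = 0.124 in edgeR and adjusted p = 0.0171 in DESeq2.

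PSAH-1 had 315 and 326 FPKM in ndx1-4, against 305 and 301 FPKM in Col-0, which is the highest fold change of the PSA genes (0.08 ± 0.07, SE). The genotypes did not overlap in either copy, and the copies lay in opposite directions. PSAH-2 made up 55.3% and 53.2% of the pair in ndx1-4, against 61.3% and 62.1% in Col-0, and PSAH-1 made up the rest. Both genes overlap a gene on the opposite strand, and 84.1% of the windows of PSAH-2 and 51.9% of those of PSAH-1 were unique. AT1G52240 (ROPGEF11), the opposite-strand partner of PSAH-2, had 326 and 176 estimated counts in ndx1-4 and 146 and 110 in Col-0, beside 3257 and 3644 counts of PSAH-2 in ndx1-4 and 3620 and 4426 in Col-0. Summed with its partner and scaled, PSAH-2 had 3205 and 2917 counts in ndx1-4, against 3766 and 3772 in Col-0, still without overlap.

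PSAF, which binds plastocyanin on the lumenal side, was the highest PSA gene over the 4 libraries, with 1237 and 1191 FPKM in ndx1-4 and 1203 and 1181 FPKM in Col-0, and its libraries overlapped. In Col-0 alone PSAO was higher, with 1166 and 971 FPKM in ndx1-4 and 1213 and 1277 FPKM in Col-0. PSAD and PSAE form the docking site of ferredoxin and are each encoded by a pair. PSAD-1 made up 59.5% and 56.3% of its pair in ndx1-4, against 56.2% and 55.8% in Col-0, with PSAD-2 as the rest. PSAE-2 made up 59.4% and 58.1% of its pair in ndx1-4, against 57.6% and 55.7% in Col-0, with PSAE-1 as the rest. In both pairs the shares did not overlap, but the gaps between genotypes were smaller than for PSAH. PSAE-1 overlaps AT4G28755 on the opposite strand, and 73.3% of its windows were unique. AT4G28755 had 2979 and 2663 estimated counts in ndx1-4 and 2478 and 3220 in Col-0. Those of PSAE-1 were 5091 and 5504 in ndx1-4 and 4535 and 5727 in Col-0. The shares of the PSAE pair therefore rest on how such reads were divided.

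In levels, PSAD-1 had 967 and 805 FPKM in ndx1-4 and 906 and 964 FPKM in Col-0, and PSAD-2 had 658 and 625 FPKM in ndx1-4 and 707 and 764 FPKM in Col-0. PSAE-1 had 476 and 446 FPKM in ndx1-4 and 480 and 497 FPKM in Col-0, and PSAE-2 had 696 and 619 FPKM in ndx1-4 and 651 and 625 FPKM in Col-0. By scaled counts PSAD-2 was separated between the genotypes and the other 3 genes overlapped, PSAE-1 by a small margin that its FPKM did not show. PSAG, PSAK, PSAL, PSAN and PSAO had log2 fold changes between -0.22 and 0.02, and PSAK, PSAL and PSAO were lower in both ndx1-4 libraries. PSAG shares most of its windows with AT1G55673 on the opposite strand (42.6% unique).

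The PSB genes encode nuclear subunits of photosystem II, among them the proteins that stabilise the oxygen-evolving complex, and their median log2 fold change was -0.10. PSBS (AT1G44575), which acts in the dissipation of excess light as heat, had 361 and 309 FPKM in ndx1-4, against 419 and 424 FPKM in Col-0. It had the lowest fold change of the group (-0.34 ± 0.11, SE), was 20.9% lower without overlap, and had adjusted p = 0.205 in edgeR and adjusted p = 0.0955 in DESeq2. PSBY, a small subunit, had the highest, with 419 and 426 FPKM in ndx1-4, against 394 and 395 FPKM in Col-0 (0.09 ± 0.07, SE).

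PSBR was the highest PSB gene, with 2273 and 2065 FPKM in ndx1-4 and 2201 and 2107 FPKM in Col-0, and the genotypes overlapped. The oxygen-evolving complex proteins PSBO and PSBQ are each encoded by a pair. PSBO-1 had 1221 and 1086 FPKM in ndx1-4 and 1189 and 1163 FPKM in Col-0, and made up 85.1% and 85.0% of its pair in ndx1-4, against 84.7% and 83.4% in Col-0. PSBO-2 had 214 and 191 FPKM in ndx1-4 and 215 and 231 FPKM in Col-0. PSBQ-2 had 864 and 762 FPKM in ndx1-4 and 797 and 853 FPKM in Col-0, and PSBQ-1 had 718 and 639 FPKM in ndx1-4 and 754 and 745 FPKM in Col-0. PSBQ-1 made up 45.4% and 45.6% of its pair in ndx1-4, against 48.6% and 46.6% in Col-0. PSBP-1, PSBW and PSBX had log2 fold changes between -0.17 and -0.09, and of these PSBX was lower in both ndx1-4 libraries, as was PSBQ-1.

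The ndx1-4 libraries differed from each other over nearly all members. ndx1-4 replicate 2 was below ndx1-4 replicate 1 in 38 of 40 members, with a median log2 difference of -0.20, beside -0.01 over all genes. In Col-0, replicate 2 was below replicate 1 in 26 of 40 members, with a median of -0.02. ndx1-4 replicate 2 was the lowest of the 4 libraries in 32 members. Relative to the Col-0 mean, the median of the 40 members was 0.01 in ndx1-4 replicate 1 and -0.23 in ndx1-4 replicate 2. The members' median log2 fold change was accordingly 0.01 without ndx1-4 replicate 2 and -0.23 without ndx1-4 replicate 1. The role medians moved likewise, to 0.13 (LHCA), -0.05 (LHCB), -0.01 (PSA) and 0.02 (PSB) without ndx1-4 replicate 2 and to -0.04 (LHCA), -0.36 (LHCB), -0.19 (PSA) and -0.22 (PSB) without ndx1-4 replicate 1. The 4 members of the genotype table had both ndx1-4 libraries below both Col-0 libraries, so leaving out a library could not turn their direction. Over the 4 fits that each left out a library, LHCB1.1 was between -1.06 and -0.83 and LHCB4.3 between -0.69 and -0.57. LHCB2.1 was between -0.54 and -0.35, and PSAH-2 between -0.39 and -0.33.

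**Figure D4:**
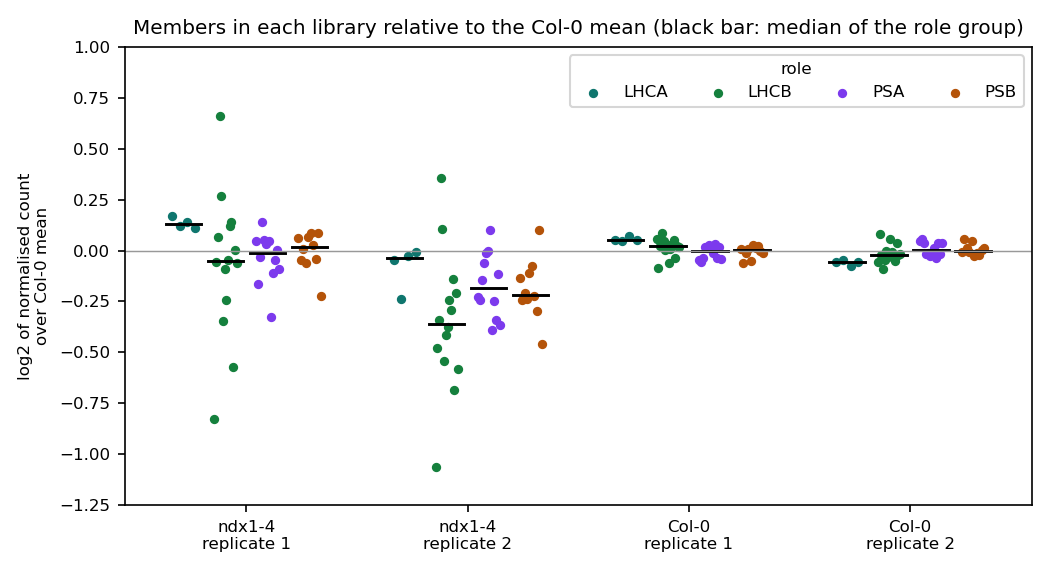
Log2 of the scaled count of each member over its Col-0 mean, by library and role, with black bars for role medians. In ndx1-4 replicate 1 the role medians are LHCA 0.13, LHCB -0.05, PSA -0.01 and PSB 0.02, and in ndx1-4 replicate 2 each is lower (LHCA -0.04, LHCB -0.36, PSA -0.19, PSB -0.22), while LHCB1.1 is the lowest point in each ndx1-4 library.

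The plot by library thus shows nearly all members lower in ndx1-4 replicate 2 than in ndx1-4 replicate 1. With 2 libraries it cannot be told which of them is shifted. Members that were lower in both ndx1-4 libraries depended on replicate 2 to different degrees. Without it, LHCB6 went from -0.30 to -0.06, whereas LHCB1.1 went from -0.94 to -0.83.

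Other chloroplast genes were compared as lists, and no gene of any of these lists passed the edgeR threshold. Of all genes tested, 0.0877% passed it. At an unadjusted p below 0.05, 8.7% of all genes tested were lower in ndx1-4 and 10.6% were higher. Other photosystem subunits (7 genes) had a median log2 fold change of -0.10, with 3 lower and 1 higher at an unadjusted p below 0.05. The lowest was PSB28 (-0.40 ± 0.10, SE) and the highest PSB27 (0.28 ± 0.08, SE), both assembly factors of photosystem II. Electron carriers and ATP synthase subunits (14 genes) had a median of -0.09, with 3 lower and 0 higher, from ATPD at -0.26 ± 0.08 (SE), a subunit of the ATP synthase, to PGRL1B at 0.08 ± 0.10 (SE), which acts in cyclic electron flow. Chlorophyll synthesis (16 of 20 genes tested) had a median of -0.12, with 5 lower and 0 higher. Its ends were PORC at -0.43 ± 0.09 (SE), a light-dependent protochlorophyllide reductase, and CRD1 at 0.17 ± 0.11 (SE), a subunit of the cyclase that closes the fifth ring.

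Genes of antenna insertion and state transition (8 of 11 tested) had a median of -0.04, with 1 lower and 1 higher, and the median ran from -0.08 without ndx1-4 replicate 1 to 0.05 without Col-0 replicate 1. CPSRP54, which carries antenna proteins through the stroma, had -0.22 ± 0.08 (SE), and ALB3, which inserts them into the thylakoid membrane, had 0.28 ± 0.08 (SE). Calvin cycle enzymes (12 genes) had the lowest median of these lists, -0.26 (-0.37 without ndx1-4 replicate 1 and -0.18 without ndx1-4 replicate 2), with 6 lower and 0 higher. Of them 4 were in the authors' genotype table, all lower in ndx1-4, against 1.14% of all genes tested. They were RBCS1B, RBCS2B and RBCS3B, which encode the small subunit of Rubisco, and RCA, which encodes Rubisco activase. RBCS1B was the lowest gene of that list, with 238 and 177 FPKM in ndx1-4, against 456 and 471 FPKM in Col-0 (-1.16 ± 0.15, SE), and PRK was the highest (0.01 ± 0.08, SE). The RBCS genes form a multigene family, so the division of reads among them is uncertain, and their shared windows were not measured.

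Known regulators of photosynthesis genes (12 of 14 tested) had a median of -0.04, with 1 lower and 1 higher at an unadjusted p below 0.05. The lowest was CGA1, with 1.098 and 1.3 FPKM in ndx1-4 and 1.26 and 2.22 FPKM in Col-0 (-0.54 ± 0.38, SE). The highest was GNC, with 10.2 and 11.0 FPKM in ndx1-4, against 8.45 and 7.77 FPKM in Col-0 (0.38 ± 0.15, SE). CGA1 and GNC are paralogous GATA factors of chloroplast development.

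Markers of other cell types were followed beside the members. The pollen list (15 of 19 genes with values) summed to 1701 and 1262 FPKM in ndx1-4, against 1083 and 969 FPKM in Col-0. In 9 of its genes (60%) both ndx1-4 libraries were above both Col-0 libraries and in none below, against 27.9% and 25.6% of all genes tested. At an unadjusted p below 0.05, 6 were higher and 0 lower, against 10.6% and 8.7% of all genes tested. The pollen list had a median log2 fold change of 0.63, but 0.18 without ndx1-4 replicate 1, and it ranged up to 0.90 when another library was left out. The tapetum list (19 of 21 genes) summed to 2401 and 2216 FPKM in ndx1-4, which lay within the 1757 and 2586 FPKM of Col-0. By gene, both ndx1-4 libraries were above both Col-0 libraries in 7 tapetum genes (36.8%) and below them in 1 (5.26%). At an unadjusted p below 0.05, 5 were higher and 0 lower. The tapetum list had a median log2 fold change of 0.15 (0.08 to 0.25 when a library was left out), and MS2 was listed as higher in the authors' genotype table. Whether the pollen or tapetum differences have a part in the members' values was not tested.

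**Figure D5:**
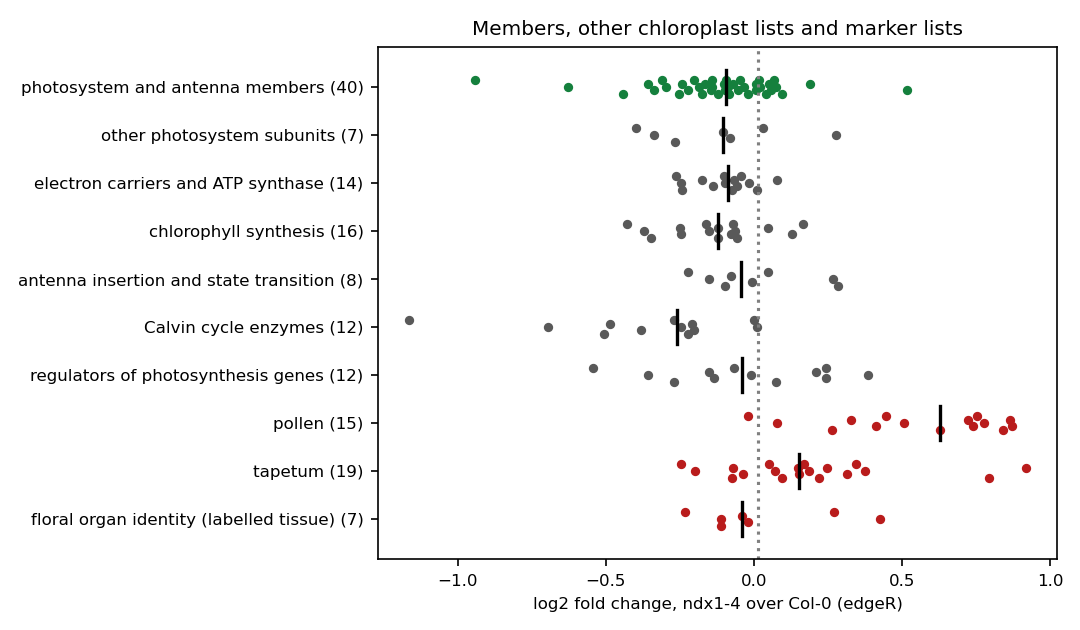
Log2 fold change, ndx1-4 over Col-0, of each gene in the members (green), in 6 other chloroplast lists (grey) and in 3 marker lists (red), with black bars for list medians and the median of all 7981 genes dotted. Most list medians lie between -0.12 and -0.04, the Calvin cycle list lies at -0.26, and the pollen list lies at 0.63 (0.18 without ndx1-4 replicate 1).

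The plot of lists shows that the members' median of -0.10 lay among the medians of the other chloroplast lists. Both ndx1-4 libraries were below both Col-0 libraries in 37.5% of the members, against 25.6% of all genes tested. That share was 83.3% for Calvin cycle enzymes, 64.3% for electron carriers and ATP synthase and 57.1% for other photosystem subunits. It was 56.25% for chlorophyll synthesis, 25% for regulators and 12.5% for antenna insertion and state transition. LHCB1.1 and RBCS1B stood at the low end of their lists.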

How the data were processed

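The members and gene lists were chosen with earlier results of these data known. Per the study's methods, mRNA libraries (TruSeq RNA v2, 75-base single-end reads) were quantified by the authors with Salmon, with GC correction, against Araport11, and groups were compared with DESeq2. The authors deposited estimated counts, rounded to whole numbers, and FPKM values, for genes past an adjusted p below 0.01 only. The FPKM columns as deposited are scaled within each table, and the tissue tables' values were put on the genotype table's scale by a constant per library. Deposited log2 fold changes and p-values, which hold the authors' own comparisons, were not used, nor were 8 columns of seedling samples.

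Flower counts of 8961 genes in both tissue tables were joined, and 7981 with a mean of at least 10 counts were tested with edgeR 4.0.16 (glmQLFit, glmQLFTest, R 4.3.3), genotype as the only term. Library scaling was recovered from the authors' counts and FPKM over 314 genes with at least 50 counts in every library, and relative to Col-0 replicate 1 was 1.12 and 1.31 in ndx1-4 and 1.20 in Col-0 replicate 2. The alternatives were TMM and total count scaling, DESeq2 1.42.0, no filter, the replicate number as a block, leaving out each library, adding the genotype table's genes, and a threshold of 0.05. The fits were tested on simulated data. Coordinates of 13220 of 13220 nuclear genes were identical in the RefSeq annotation of TAIR10.1, from which sequences were read. Named genes were the members of the genotype table, the ends and the highest gene of each role, and both ends of each family.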

Additional observations from a re-analysis of the deposited data

How the results depend on the processing

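The count of members past an adjusted p of 0.01 was 0 in edgeR with each scaling, without the filter, at 0.05, with the genotype table's genes added and without any one library (0 to 0), against 3 with DESeq2 and 2 with the replicate number as a block. Over all genes the count was 7, against 199 with DESeq2, 281 with the block, 22 with the genotype table's genes added, 30 at 0.05 and 0 without any one library (0 to 0). The labels share only replicate numbers and name no shared batch, so the block was not taken as a pairing. The deviations of same-numbered libraries correlated at r = 0.46 across genes, with only 2 pairs. Whether same-numbered libraries shared a batch was not tested. The members' median log2 fold change of -0.10 ran from -0.23 to 0.0053 without one library. LHCB1.1 passed with DESeq2 (-0.95) and the block (-0.94), LHCB4.3 with DESeq2 (-0.64) and the block (-0.63), and LHCB2.1 with DESeq2 (-0.45).

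Direction turned in at least 1 fit for 18 of the 40 members. These include LHCA3, LHCB4.2, LHCB5, PSAG, PSAN, PSBP-1 and PSBW, and 11 of the 25 members named by the rule. PSAE-2 was -0.0060 with total count scaling. PSAF was -0.00038 with TMM and -0.027 with total count scaling, and PSBR was -0.013, -0.040 and -0.0037 with TMM, total count scaling and DESeq2. Leaving out one library gave ranges of -0.047 to 0.17 for LHCA1, -0.24 to 0.12 for LHCA2, -0.0077 to 0.11 for LHCA4, -0.34 to 0.069 for LHCB1.3, -0.29 to 0.12 for LHCB4.1, -0.23 to 0.045 for PSAD-1, -0.063 to 0.14 for PSAE-2, -0.014 to 0.052 for PSAF, -0.13 to 0.061 for PSBO-1, -0.11 to 0.067 for PSBQ-2 and -0.074 to 0.084 for PSBR. The causes were not tested. Of the other values of the 25 named members, the lists and the shares, 400 kept their direction and side of the threshold or stayed within the spread of the libraries. For shares without a library this was fixed in advance, since with 2 libraries a genotype the difference cannot move beyond that spread. The direction of members whose genotypes did not overlap was fixed likewise when a library was left out. The count of 400 is therefore a description. The 14 values that moved beyond the spread were medians of LHCB, PSA, PSB, other photosystem subunits, antenna insertion and Calvin cycle genes. With total count scaling, PSA and antenna insertion genes were at -0.13 and -0.09. With 2 libraries a genotype, small differences of single members were not detectable, and p-values measure only the spread between these libraries.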
